A study of Mus musculus with 2 samples.

Results

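The miR-322, miR-503 and miR-450 cluster is a run of 7 microRNA genes on the X chromosome, and its levels were read here in mouse gastrocnemius, a muscle of the calf. The members were taken by name from GENCODE M21 and not by their counts, but with earlier results of these data known. They make up 7 of the 2202 microRNA genes in the tables: Mir322, Mir503, Mir351, Mir542, Mir450a-2, Mir450a-1 and Mir450b. The animals were 2 males of strain B6CASTF1/J, a hybrid of C57BL/6J with the CAST strain, aged 36 days, untreated as far as the labels say, and each gave 1 library of RNAs under 30 in size, unit not given. Both libraries form 1 group, so members can be compared with other genes of the same library and 1 animal with the other. The depth was 4134880 strand-matched microRNA reads for replicate 1 and 3219740 for replicate 2. CPM below means reads of a gene for every 1000000 such reads, as mean ± SD over n = 2.

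MicroRNAs are cut from hairpins in a longer transcript, and 1 arm of the hairpin is loaded onto an Argonaute protein, where the seed, bases 2 to 8 from the 5′ end, pairs with target messages. Neighbouring hairpins can lie on 1 primary transcript. Mouse miR-322 is the counterpart of human miR-424. With miR-503 it is known to rise as myoblasts differentiate and to repress the cell cycle phosphatase Cdc25a, which is why the cluster is called myogenic. That name could not be checked in 1 tissue of 1 age.

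The mature sequences of the cluster fell into several seed groups, and they are shown because the seed sets which other microRNAs a member shares targets with. The letters are from RefSeq on GRCm38.p6, the assembly also called mm10, 5′ to 3′, with the seed in capitals. All 7 members had mature sequences in the RefSeq table.
miR-322-5p: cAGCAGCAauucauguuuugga
miR-503-5p: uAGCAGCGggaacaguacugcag
miR-351-5p: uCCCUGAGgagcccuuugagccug
miR-542-3p: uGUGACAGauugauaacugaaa
miR-542-5p: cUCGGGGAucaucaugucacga
miR-450a-5p: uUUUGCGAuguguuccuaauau
miR-450b-5p: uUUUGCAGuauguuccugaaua
The 13 distinct arms of the 7 hairpins carried 12 distinct seeds. The shared one, UUGGGAA, belonged to miR-450a-1-3p and miR-450b-3p, which were identical at 20 of 22 bases. Every deposited count is for a whole hairpin and does not say which arm a read came from.

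Relations to microRNAs outside the cluster follow from these seeds. miR-322-5p carries the seed AGCAGCA of the miR-15 and miR-16 family, known as a brake on the cell cycle, and miR-503-5p shares bases 2 to 7 with it but not base 8. miR-351-5p carries the seed CCCUGAG of miR-125a and miR-125b. The relatives with the most counts, and those whose arm stands in several hairpins, are shown for comparison.
miR-195a-5p: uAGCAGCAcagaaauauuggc
miR-497a-5p: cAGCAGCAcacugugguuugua
miR-15a-5p: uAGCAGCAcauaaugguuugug
miR-16-5p: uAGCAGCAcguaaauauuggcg
miR-125a-5p: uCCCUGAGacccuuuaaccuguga
miR-125b-5p: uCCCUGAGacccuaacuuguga
Compared position by position without gaps, miR-322-5p matched miR-497a-5p at 15 of 22 bases, miR-15a-5p at 15 of 22 and miR-503-5p at 11 of 22. After the seed, miR-351-5p had 2 of 16 bases in common with miR-125a-5p.

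The hairpins of the miR-450a pair are shown because their shared stretch bears on every count of these genes. The capitals mark the longest stretch found in both, 25 bases that hold the whole of miR-450a-5p.
Mir450a-1 hairpin: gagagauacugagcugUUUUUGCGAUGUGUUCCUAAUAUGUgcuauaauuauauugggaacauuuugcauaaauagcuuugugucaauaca
Mir450a-2 hairpin: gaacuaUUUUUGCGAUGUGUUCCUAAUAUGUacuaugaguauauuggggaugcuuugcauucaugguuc
A read of miR-450a-5p therefore matches 2 hairpins equally, and the tables have a row of their own for reads with several loci, which were read here as left out of every gene. That row held 70.4% of the reads of replicate 1 and 73.3% of those of replicate 2. The other 5 members shared no stretch of 20 bases with any other of the 2202 hairpins, on either strand. Copies outside annotated hairpins were not searched. If the strain name follows the convention of writing the dam first, the X chromosome of these males comes from C57BL/6J, the strain of the mm10 reference, which was not checked in the files.

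All 7 hairpins lie on the minus strand of the X chromosome within 6353 bases of mm10. In the order of transcription, Mir322 occupies 53054255 to 53054349, Mir503 53053984 to 53054054 and Mir351 53053255 to 53053353. Mir542 follows at 53049403 to 53049487, Mir450a-2 at 53048299 to 53048367, Mir450a-1 at 53048154 to 53048244 and Mir450b at 53047997 to 53048078. The gaps between neighbours were 200, 630, 3767, 1035, 54 and 75 bases. GENCODE M21 places none of the 7 in an exon or intron of another gene. The noncoding gene C430049B03Rik ends 696 bases before Mir322, and the noncoding gene Gm28730 begins 95 bases after Mir351, both on the same strand. Hence the annotation separates Mir322, Mir503 and Mir351 from Mir542 and the miR-450 genes by Gm28730. The hairpins were 69 to 99 bases long, and GC content was 50.5% to 54.9% in Mir322, Mir503, Mir351 and Mir542 but 30.5% to 36.2% in the 3 miR-450 genes. The predicted folding energy (RNAfold) did not follow the order of counts: it was −42.9 kcal/mol for Mir322, −41.0 for Mir450a-1, −38.1 for Mir542, −37.6 for Mir503, −37.3 for Mir351, −31.8 for Mir450b and −26.5 for Mir450a-2.

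The question for the members was how their levels compare along the cluster. Mir322, at its 5′ end, had by far the most counted reads, a mean of 23.6-fold over Mir351, the next member. The counts did not fall steadily with distance: they dropped from Mir322 to Mir503 and were higher at Mir351 and Mir542 than at Mir503. Mir450b, the last gene, was lower than all 4 of these. The miR-450a pair had the lowest counts, but these lack the reads of its shared 5p arm, so its place in the profile of levels is not known. As a whole the cluster took 1.64% of replicate 1's counted reads (95% limits 1.63 and 1.65, exact Clopper-Pearson) and 1.35% of replicate 2's (1.34 and 1.36), or 1.50% ± 0.206 (SD, n = 2). All intervals here cover counting error only. In bulk muscle, fewer cells of a type and less RNA per cell cannot be told apart.

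**Figure D1:**
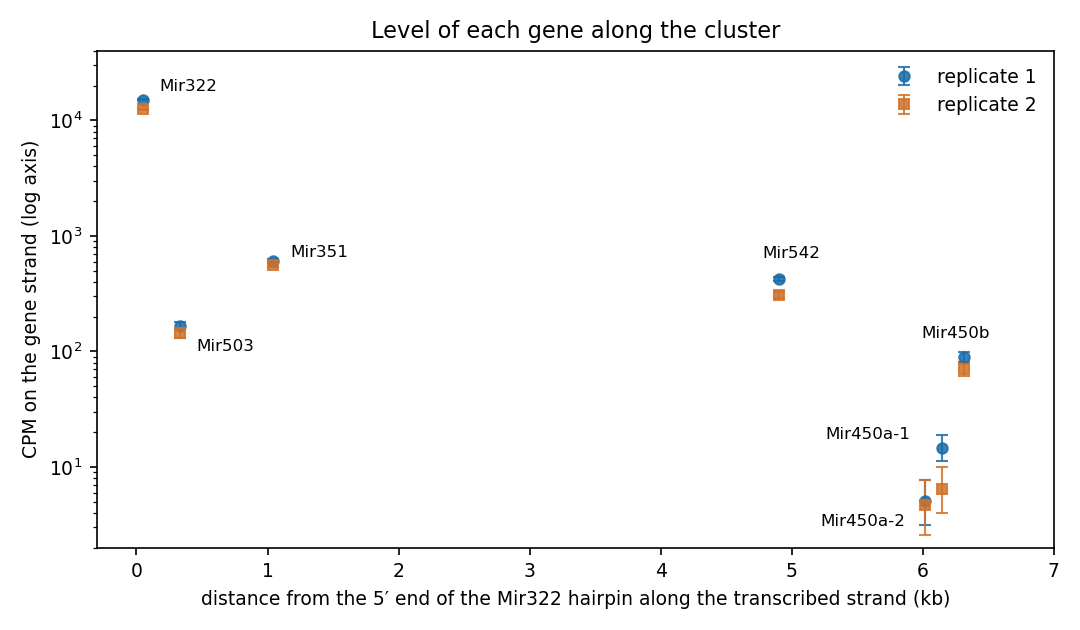
CPM on the gene's strand (log axis) of the 7 members against distance in kb from the 5′ end of the Mir322 hairpin, with 1 point per library and exact 95% counting intervals as bars. Mir322 stands at 15118 and 12424 CPM, Mir503, Mir351, Mir542 and Mir450b between 70.2 and 606 CPM, and the miR-450a pair between 4.66 and 14.8 CPM.

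Mir322 (ENSMUSG00000065418.1) had 62511 counts in replicate 1 and 40003 in replicate 2, which is 15118 and 12424 CPM, or 13771 ± 1905 CPM. It ranked in place 16 of all microRNA genes by mean CPM, 16 in replicate 1 and 17 in replicate 2, directly below Mirlet7b at 16389 ± 1754 CPM and directly above Mir30d at 12663 ± 523 CPM. Mir322 was above Mir30d in both libraries, but in replicate 2 only by 12424 against 12293 CPM, and its mean ± SD overlapped that of Mir30d and that of Mirlet7b. Of the cluster's counted reads, which lack those of miR-450a-5p, Mir322 took 92.1% in replicate 1 and 91.9% in replicate 2.

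Mir503 (ENSMUSG00000076122.1) lies 200 bases further on and, like Mir322, is known to act on cell cycle genes. It had 692 and 462 counts, or 167 and 143 CPM, and ranked in place 145. Mir322 exceeded it by 6.50 on the log2 scale in replicate 1 and 6.43 in replicate 2, a mean of 6.47 ± 0.04 (n = 2) or 88.4-fold. This was the largest step in counted reads between neighbours along the cluster.

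Mir351 (ENSMUSG00000065503.1), a microRNA known from the proliferation of muscle progenitors after injury, came second in level. It had 2504 and 1799 counts, or 606 and 559 CPM, with a mean of 582 ± 33.1 CPM and place 80. It exceeded its neighbour Mir503 by 3.75-fold (log2 ratio of Mir503 over Mir351 −1.91 ± 0.07, n = 2) and lay 23.6-fold below Mir322 (log2 ratio 4.56 ± 0.12).

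Mir542 (ENSMUSG00000076140.1), whose 3p arm is known to repress the apoptosis inhibitor survivin, is set off from Mir351 by the longest gap. It had 1749 and 994 counts, or 423 and 309 CPM, with a mean of 366 ± 80.8 CPM and place 102. Mir351 exceeded it in both libraries, by 0.52 and 0.86 on the log2 scale (0.69 ± 0.24), the smallest mean step in counts between neighbours. In replicate 2 the step within the miR-450a pair was smaller, at 0.47, but its counts are no levels. The values of Mir542 in the libraries differed more than those of Mir322, Mir503 or Mir351, with an SD of 22.1% of the mean against 5.69% to 13.8%.

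The 3 miR-450 genes lie close together at the 3′ end and together held 0.634% ± 0.0450 of the cluster's counted reads. Mir450b (ENSMUSG00000076050.1), with no copy among the hairpins, had 370 and 226 counts, or 89.5 and 70.2 CPM, and ranked in place 175. Mir450a-1 (ENSMUSG00000065486.1, named Mir450-1 in GENCODE M21) had 61 and 21 counts, or 14.8 and 6.52 CPM. Mir450a-2 (ENSMUSG00000076399.1, named Mir450-2) had 21 and 15 counts, or 5.08 and 4.66 CPM. In counted reads Mir450b exceeded Mir450a-1 7.97-fold (log2 ratio of Mir450a-1 over Mir450b −2.99 ± 0.57). The counts of the miR-450a pair leave out reads that match both hairpins, which their 5p arm does throughout, so they are counts of the remaining reads and not levels of miR-450a.

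By level the order of the 5 members without a copy was Mir322, Mir351, Mir542, Mir503 and Mir450b in both libraries. Mir450a-1 and then Mir450a-2 followed by counted reads, which is no order of level for this pair. The full order was set by mean CPM in these same 2 libraries, so a step down in the mean is largely built in and lends the order no support. Each of the 6 steps down this order of counts had the same sign in both libraries and a mean larger than its SD. They ran from 0.69 ± 0.24 for Mir351 over Mir542 to 4.56 ± 0.12 for Mir322 over Mir351 on the log2 scale. The last step, Mir450a-1 over Mir450a-2, was 1.52 in replicate 1 and 0.47 in replicate 2, and its counting interval in replicate 2 ran from −0.54 to 1.55, so the 2 genes were not set apart there. With 2 libraries the smallest p of an exact sign-flip test (two-sided) is 0.5, so the order is a description. A microRNA read covers about 1 arm whatever the hairpin's length, and the steps between neighbours kept their direction per base of hairpin.

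**Figure D2:**
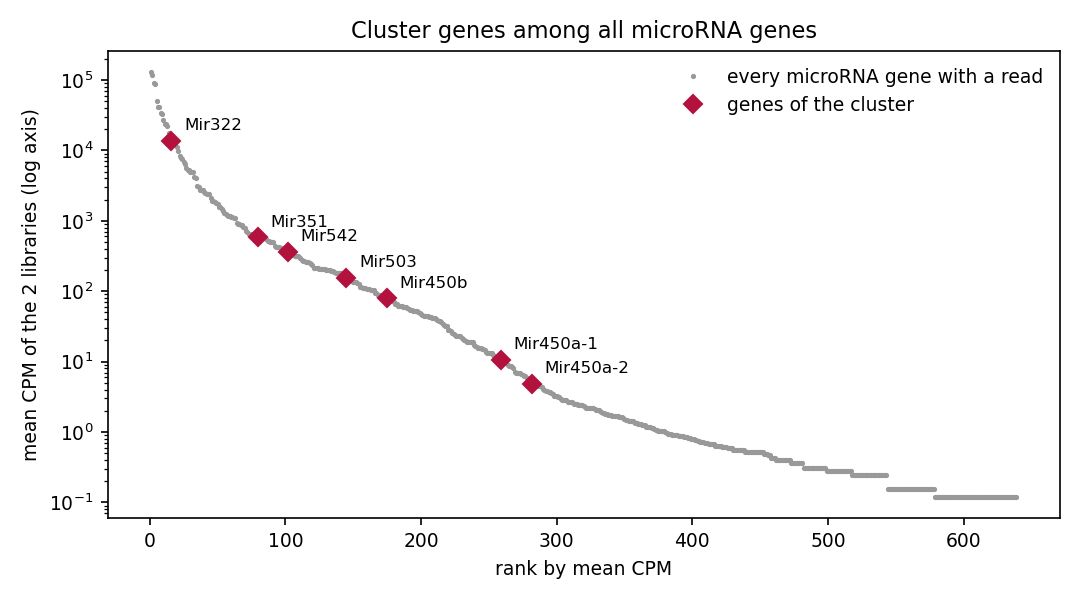
Mean CPM of the 2 libraries (log axis) against rank for every microRNA gene with a counted read, with the 7 members marked by diamonds. Mir322 sits at place 16, Mir351, Mir542, Mir503 and Mir450b between places 80 and 175, and the miR-450a pair at places 259 and 282.

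All 7 members had at least 10 counts in both libraries, as did 295 of the 2202 genes. No member had a read on the opposite strand, and the column that ignores strand gave them identical counts, so the choice of count column does not touch their counts. Among X-linked microRNA genes, 142 in all, which held 2.88% ± 0.288 of counted reads, the cluster made up 51.9% ± 1.95 and Mir322 alone 47.8% ± 1.85. The next X-linked gene, Mirlet7f-2, named after its values were seen, had 4909 ± 191 CPM, but let-7f-5p stands in 2 hairpins. Of the 142 X-linked genes, 57 share 20 bases with another hairpin and can miss reads, so the shares of the cluster and of Mir322 are of reads placed at 1 locus.

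The seed relatives show how much the cluster supplied of the reads counted in genes that carry each seed. These are counts of whole hairpins and can include reads of the other arm, which has a different seed. In counted reads Mir322 exceeded each of the 7 other genes of its seed that were listed. It held 55.2% of the reads of these 8 genes in replicate 1 (exact interval 54.9 to 55.5). In replicate 2 its share was 54.1% (53.8 to 54.5). Mir195a, known from the withdrawal of heart muscle cells from the cell cycle after birth, had 28012 and 19233 counts, or 6374 ± 566 CPM, 2.15-fold below Mir322 (log2 ratio 1.11 ± 0.07, n = 2). Mir15a had 1765 ± 252 CPM, and Mir497a, the neighbour of Mir195a, had 1587 ± 173 CPM. These lay 7.80-fold and 8.66-fold below Mir322.

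Mir16-1 had 896 ± 61.4 CPM, Mir15b 577 ± 177 CPM and Mir16-2 209 ± 7.06 CPM. miR-16-5p stands in 2 hairpins, so Mir16-1 and Mir16-2 miss reads in the same way as the miR-450a pair, and the share of Mir322 in its seed class is a share of reads placed at 1 locus. Mir195b had no read in either library, for which a count of 0 allows up to 0.726 and 0.932 CPM of reads aligned to 1 locus. Mir497b, opposite Mir497a and without this seed, had 0 and 2 counts.

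Mir503 was far below most of these genes. Its level of 155 ± 16.9 CPM lay 41.0-fold below Mir195a and 11.3-fold below Mir15a, and 1.35-fold below Mir16-2 (log2 ratio −0.43 ± 0.11). By counted reads, the 2 members of the cluster with a miR-15 or miR-16 type of seed thus stood at opposite ends of these genes. Mir322 was above all of them and Mir503 below each one that had over 2 counts. As Mir16-1 and Mir16-2 miss reads, the place of Mir322 above these 2 is one of counts and not of levels. The place of Mir497a depends on the count column: in the one that ignores strand it has 0 counts and lies below Mir503.

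By counted reads of whole hairpins, Mir351 was the smaller part of its own seed class. Mir125a had 12630 and 8121 counts, or 2788 ± 376 CPM, 4.77-fold above Mir351 (log2 ratio of Mir351 over Mir125a −2.25 ± 0.11). Mir125b-1 had 239 ± 66.0 CPM and Mir125b-2 182 ± 54.9 CPM, both below Mir351, but miR-125b-5p stands in both hairpins and its reads can be missing from both counts. Mir351 held 14.5% of the reads counted in these 4 genes in replicate 1 (14.0 to 15.1) and 16.4% in replicate 2 (15.7 to 17.1).

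**Figure D3:**
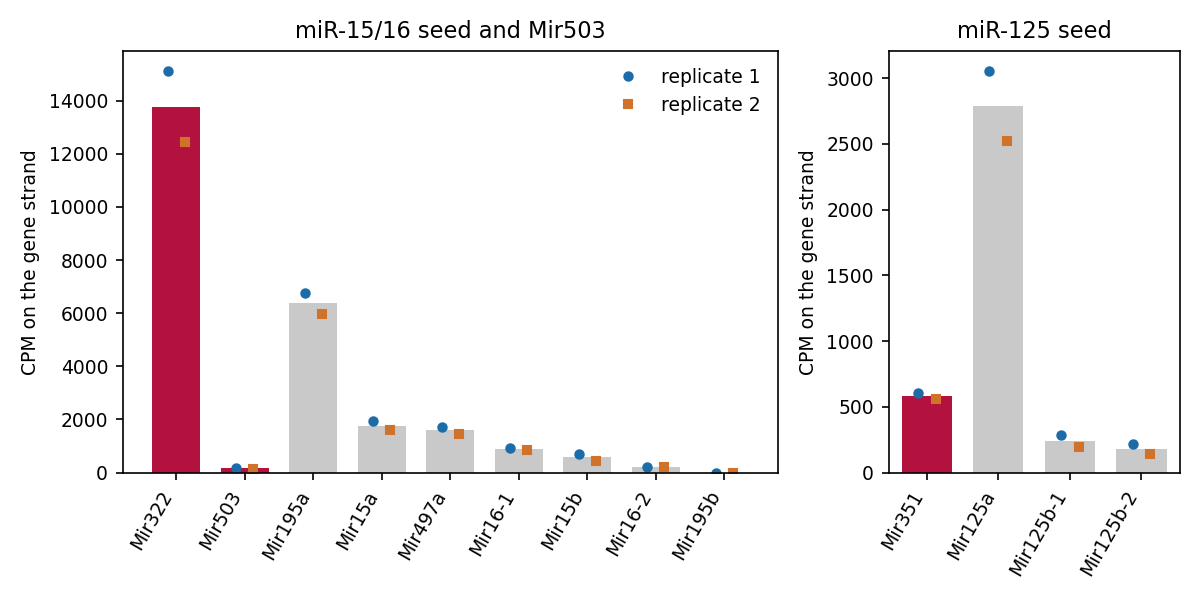
CPM on the gene's strand for Mir322, Mir503 and the listed genes with the miR-15 and miR-16 seed (left) and for Mir351 and the miR-125 genes (right), with bars at the mean of 2 libraries and points for each library. Mir322 at 13771 CPM exceeds Mir195a at 6374 CPM, whereas Mir351 at 582 CPM lies below Mir125a at 2788 CPM.

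Mir206, specific to skeletal muscle, served as a reference for the tissue. Mir206 had 106820 and 92373 counts, or 27262 ± 2019 CPM, and exceeded Mir322 1.99-fold (log2 ratio of Mir322 over Mir206 −0.99 ± 0.31, n = 2), with −0.77 in replicate 1 and −1.21 in replicate 2. The 9 striated muscle genes together held 2.89% ± 0.217 of counted reads, nearly all of it Mir206, with none of them at 0. Mir1a-2 and Mir133a-1, whose mature forms also come from a second gene, had 331 and 24.5 CPM in the mean. Reads that match both genes can be missing from these counts, so the sum is no measure of all muscle microRNA. The 6 genes of the proliferation cluster led by Mir17 held 0.292% ± 0.0215 of counted reads, which is below the 1.50% of the Mir322 cluster. At least 1 counted gene of the Mir17 cluster shares 20 bases with another hairpin and can miss reads. The comparison is therefore of reads placed at 1 locus and not of levels.

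To set the spread of counts along the cluster in context, all runs of microRNA genes on 1 strand with gaps of at most 10 kb were taken, and 7 of them had at least 4 genes with 10 or more counts in both libraries. The Mir322 cluster had the widest range, 2828-fold from Mir322 to Mir450a-2 or 11.47 on the log2 scale, above the imprinted run led by Mir411 with 10.76 and the one led by Mir127 with 8.43, leaders named after their values were seen. Its place depends on the limits set. With a minimum of 1 count per gene in place of 10 it was in place 3 of 7. It also rested on the miR-450a pair: over genes that share no 20 bases with another hairpin, a limit added after the data were seen, the range was 7.43, in place 3 of the 4 runs left. In counted reads Mir322 held 92.0% ± 0.0946 of its run, the highest share of a leading gene among the 7 runs. Mir127 followed with 67.9% ± 1.68. Reads of miR-450a-5p are missing from the share of Mir322, so whether the concentration in 1 gene rests on the pair is not known.

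The neighbouring X-linked run, miR-106a-363, had its counted reads spread over more genes. Its 4 genes with 10 or more counts, Mir20b, Mir92-2, Mir106a and Mir363, lay within 1.37-fold of each other in mean CPM, and Mir20b, highest in the mean, held 26.0% ± 6.90. The libraries differed in this: Mir20b led in replicate 1 with 98 of 317 counts, and Mir92-2 led in replicate 2 with 47 of 104, at 14.6 CPM against 4.66 for Mir363. Mir19b-2 had 1 count in each library and Mir18b had 0. At least 1 of the 4 genes shares 20 bases with another hairpin and can miss reads. The even spread is therefore one of reads placed at 1 locus and not of levels.

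**Figure D4:**
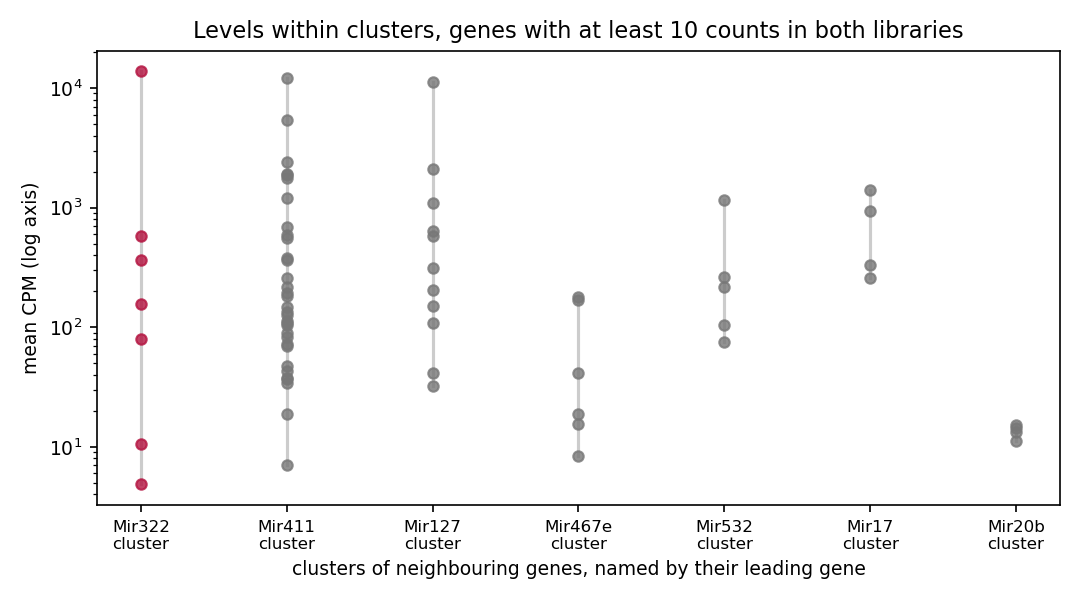
Mean CPM (log axis) of the genes with at least 10 counts in both libraries in each of the 7 runs of neighbouring microRNA genes, with 1 point per gene and a line from the lowest to the highest. In the Mir322 run a wide gap separates the leading gene at 13771 CPM from the next at 582 CPM.

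The other comparison was between the 2 animals, with 1 library on each side and so no test. The ratio is replicate 2 over replicate 1 of CPM + 1 on the log2 scale, after TMM scaling, which corrects library sizes for a few dominant genes. Differences between the animals were small for most members. Of the 6 members that averaged 10 CPM or more, 5 were lower in replicate 2, against 55.9% of the 261 genes at that level. The count was 6 of 6 with total-count scaling, against 79.7%, and 5 of 6 with DESeq2 size factors, against 49.0%. None of the 6 passed 2-fold, against 5.36% of the genes in either direction and 4.98% downwards, while with total-count scaling Mir450a-1 did, against 6.51%. The median of the 6 was −0.15, and that of all 261 genes −0.05, or −0.31 and −0.21 with total-count scaling.

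The ratio of Mir322 was −0.12 with a counting interval of −0.13 to −0.10, 1.08-fold lower in replicate 2, or 1.22-fold lower with total-count scaling. Mir542 was at −0.29 (−0.40 to −0.17), Mir450b at −0.18 (−0.43 to 0.06) and Mir503 at −0.05 (−0.23 to 0.12). Mir351 was at 0.05 (−0.04 to 0.14), and its sign turned to −0.12 with total-count scaling. Mir450a-1, from 61 and 21 counts, had the largest ratio at −0.92 (−1.80 to −0.27). Mir450a-2, under the minimum of 10 CPM, was at 0.04 (−1.02 to 1.07).

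Ratios to Mir322 within a library need no scaling, and they show whether the members kept their proportions. Relative to Mir322, Mir351 was higher in replicate 2 than in replicate 1 by 0.17 on the log2 scale (95% counting interval 0.08 to 0.26), while Mir542 differed by −0.17 (−0.28 to −0.06) and Mir450a-1 by −0.87 (−1.58 to −0.16). The intervals of Mir503 (−0.11 to 0.23), Mir450b (−0.31 to 0.17) and Mir450a-2 (−0.77 to 1.11) held 0. These differences exceed counting error for 3 members, but the libraries as a whole differed beyond it, and the share of all genes that did so was not counted. After TMM scaling, the absolute log2 ratio between the libraries had a median of 0.18 over the 261 genes averaging 10 CPM or more. The differences of Mir351 and Mir542 were of about that size. How far 2 animals differ by chance was not measured.

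**Figure D5:**
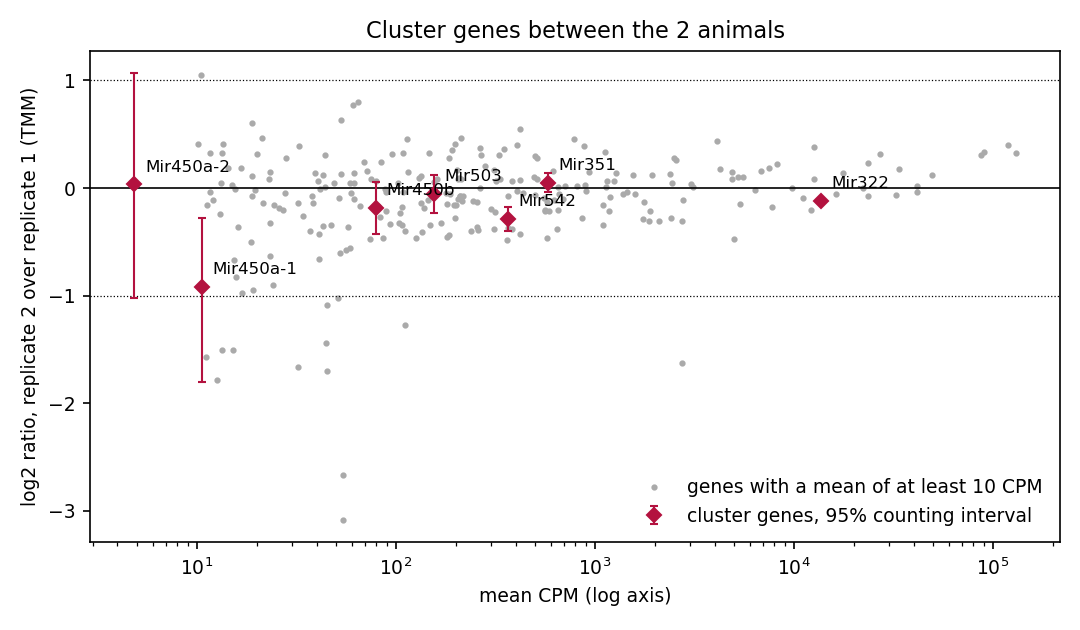
Log2 ratio of replicate 2 over replicate 1 (TMM-scaled CPM + 1) against mean CPM (log axis), with grey points for the 261 genes averaging 10 CPM or more and diamonds for the 7 members with 95% counting intervals. Dotted lines mark 2-fold, and the members other than Mir450a-1 lie between −0.29 and 0.05.

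Among 164 other genes that averaged 100 CPM or more, Mir1193 (−0.12), Mir125a (−0.11) and Mirlet7a-1 (−0.12) had the ratios closest to that of Mir322, within 0.01 on the log2 scale over 2 libraries. The seed relatives had a median of −0.04 over 6 tested genes of the miR-15 and miR-16 list, and −0.40 over the 3 miR-125 genes. Of the 6 genes, 4 were lower in replicate 2, against 55.9% of all 261 genes averaging 10 CPM or more. In the miR-106a-363 run, Mir106a (−1.51), Mir20b (−1.50) and Mir363 (−1.57) were far lower in replicate 2 and Mir92-2 was at 0.19.

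Other cell types also differed between the libraries, and their part in the ratios of the cluster was not tested. The nerve and glia list, nearly all of it Mir338, held 0.430% of counted reads in replicate 1 and 0.124% in replicate 2, with 6 of its 9 genes at 0 in both. The genes at 0 were the numbered Mir124a and Mir9 genes. Reads that match several of them can be missing from their counts, so a count of 0 does not show absence. The 3 sensory neuron genes, led by Mir183, had 829 and 77 counts in sum, and the liver gene Mir122 had 85 and 15. The striated muscle list, nearly all of it Mir206 in counted reads, went the other way, from 2.74% to 3.04%. So did endothelium (Mir126a), from 8.54% to 9.58%. Smooth muscle and fibroblasts, nearly all of it Mir143, went from 8.67% to 9.46%. The leukocyte sum, led by Mir155, went from 0.233% to 0.242%. Within the smooth muscle and fibroblast list, 3 of 5 tested genes were lower in replicate 2, Mir199a-2 (−0.32), Mir199b (−0.47) and Mir214 (−0.34), and the median was −0.32. Reads that match several miR-199 genes can be missing from the counts of Mir199a-2 and Mir199b. Of 5 tested leukocyte genes, 1 was lower in replicate 2, Mir223 (−0.37), and the median was 0.28. With total-count scaling Mir142a (−0.08) was lower as well. Over all 261 genes averaging 10 CPM or more, 55.9% were lower in replicate 2 with TMM scaling and 79.7% with total-count scaling. Red cells, led by Mir451a, held 0.0405% and 0.0394%, and epithelium, led by Mir203, held 0.0237% and 0.0216%. These shares depend on the count column: of 47 listed genes outside the cluster with at least 10 counts in both libraries, 9 were under 10 in the column that ignores strand, among them Mir338, Mir126a, Mir451a, Mir142a, Mir486 and Mir1a-2.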

How the data were processed

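Each library came as a table of read counts that the authors deposited, with 1 row for every microRNA gene (2202), on mm10 with GENCODE M21 per the deposited file descriptions. Aligner, counter and trimming: not given in the sources used here. The column of counts on the gene's strand was used, with the others as an alternative. Rows that name no gene, 79.0% and 80.8% of reads, stayed out of the library sizes. The labels describe different males under 1 shared donor identifier, and the libraries differed beyond sampling noise (chi-square 111.5 per degree of freedom over 362 genes). Levels were CPM, ratios between genes used counts + 0.5, and ratios between libraries used CPM + 1 with TMM factors 1.06 and 0.944 (edgeR 4.0.16), or DESeq2 1.42.0 size factors as an alternative. The ratio was tested on simulated counts with sampling noise alone, which the real libraries exceed. Recovery was judged after subtracting the median of the unchanged genes, a step not applied to the real ratios. The simulation therefore checks the calculation and not its precision in these libraries. Hairpins for the search and for length and GC content came from GENCODE M21 transcripts, names from RefSeq, and all 73 listed names were matched.

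The members and lists were chosen with earlier results of these data known. Named were the members, their seed relatives, the genes ranked directly above and below Mir322, the 3 genes with the ratio closest to it, the miR-106a-363 genes and the leading gene of each marker list. Others, such as genes named for their part in a list's count, were chosen after their values were seen. With 1 group, no test between conditions was possible. The count of reads per library limits precision, and p-values were not computed across genes.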

Additional observations from a re-analysis of the deposited data

How the results depend on the processing

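The cluster's share of counted reads, 1.50%, became 1.99% with the column that ignores strand, whose total is smaller, 0.302% of all reads, and 1.72% without the most abundant gene in the library size. Leaving out 1 library gave 1.35% to 1.64%. The 6 ratios of neighbouring members kept their direction in every alternative. Per base of hairpin, an alternative added after the data were seen, the log2 ratio was 6.05 for Mir322 over Mir503, −1.43 for Mir503 over Mir351 and 5.87 for Mir542 over Mir450a-2, and with a pseudocount of 5 counts the last was 5.86. With a minimum of 100 CPM, 3 of the 4 members left were lower in replicate 2. The share over all genes at that minimum was not counted, and at the minimum of 10 CPM it was 55.9% with TMM scaling. The range of counts in the cluster fell to 7.43 without genes that have copies. Mir503 over Mir497a reversed to 10.14 in the column that ignores strand, where Mir497a, which overlaps Mir497b on the opposite strand, has a count of 0; the cause was not tested. No paired analysis was possible because there is 1 group. Depth limits the miR-450a pair, with counts from 15 to 61.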
